A study of Homo sapiens with 6 samples.

Results

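The protocadherin genes measured here were the 59 gene symbols that begin with PCDH followed by a number, or with PCDHA, PCDHB or PCDHG, among the 16571 gene symbols counted. They comprised 13 PCDHA, 16 PCDHB and 19 PCDHG genes, which form the clusters on chromosome 5, and 11 genes with a number, which are not clustered. The members were taken by their symbols, but the family was chosen by a value known from these libraries, the low level of PCDH9 in the shUSP39 cells, so PCDH9 is described without a test. The counts of members come from the same comparison, and they are given as a description beside the share of all genes.

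Protocadherins are transmembrane proteins of the cadherin superfamily, and the clustered ones bind the same protein on neighbouring cells. In the PCDHA and PCDHG clusters, each gene contributes its own large variable exon with its own promoter, and this exon is spliced to constant exons shared by the whole cluster. The PCDHB genes have no constant exons and are each encoded by a single exon, so their transcripts need no splicing. The numbered genes are spliced, and many of them are best known from the developing nervous system.

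RNA-seq was performed on A2780, an established human ovarian cancer cell line labelled as serous. All cells had been infected with a lentiviral pGIPZ vector, which carried a control sequence (pGIPZ-NC, 3 libraries) or a short hairpin RNA against the splicing factor USP39 (shUSP39, 3 libraries). The study's methods describe puromycin-selected stable lines and 2 hairpins, and the labels do not state which hairpin was used. USP39 itself was not analysed here.

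The libraries held 28294819 to 32939264 counts each. A count was found for 12662 to 12819 genes in the pGIPZ-NC libraries and in shUSP39 replicate 1, but for 15446 and 14890 genes in shUSP39 replicates 2 and 3, which thus stood apart. Of the markers of serous ovarian carcinoma, PAX8, ESR1, EPCAM and CDH1 had mean levels of at most 0.132 CPM (counts scaled to library size) in either group, so these genes were near 0 in cells labelled serous. The 9 serous markers in the table summed to 47.2 to 49.6 CPM in pGIPZ-NC and 34.6 to 41.2 CPM in shUSP39, nearly all from keratins. Mean KRT18 was 22.4 and 32.9 CPM and mean KRT19 24.4 and 1.96 CPM, with 1 of the 4 tested markers higher and 2 lower. MUC16 was at most 0.188 CPM in the pGIPZ-NC libraries and shUSP39 replicate 1, and at 4.90 and 2.40 CPM in shUSP39 replicates 2 and 3. Of the 4 fibroblast markers, 3 were lower, and their sum of 1133 to 1197 CPM in pGIPZ-NC and 454 to 474 CPM in shUSP39 was almost all COL1A2 (means 1160 and 459 CPM). COL1A1 did not pass. Among all genes tested, 16.1% were higher and 17.5% were lower. The 6 neural markers went in both directions, with TUBB3 higher (37.7 and 65.9 CPM), SYP lower (35.2 and 22.7 CPM) and SNAP25 and NCAM1 near 0, and they summed to 73.7 to 84.7 and 88.8 to 101 CPM. The leukocyte markers were at or near 0, with a summed level of at most 0.490 CPM in any library. The part of these marker changes in the protocadherin results was not tested. In bulk RNA, fewer cells with a transcript and less of it in each cell cannot be told apart.

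In shUSP39 cells, 4 of the 5 tested numbered protocadherins other than PCDH9 were lower, whereas the clustered genes that passed the test were PCDHB genes and lay in both directions. Of the 59 genes, 22 had enough counts for the test (quasi-likelihood test of edgeR, p-values adjusted by Benjamini-Hochberg over all 10695 genes tested). Leaving out PCDH9, 9 of 21 were lower at an adjusted p under 0.05, where 17.5% of all genes tested were lower. Another 2 were higher, where 16.1% of all genes tested were higher. Under upper-quartile scaling, 58.0% of all calls were higher in place of 48.0%, and the members, PCDH9 included, had 10 lower and 3 higher. Of the 9, 8 were lower by more than 2-fold, and 2.28% of all genes tested were lower to that extent. No share of members is read as a finding, since the family was chosen with this comparison known. Several lower members also had enough counts in pGIPZ-NC alone, which favours this direction. Among the numbered genes these were PCDH17 and PCDH1, beside PCDH9. Where every library had to hold at least 10 counts, 2 of 11 members (18.2%), PCDH7 and PCDH10, were lower, and so were 18.3% of the 9556 genes tested. With shUSP39 replicate 1 as the only shUSP39 library, 7 were lower, PCDH9 included, and 0 higher, and this fit assumes that the lone library varied as the controls did. Leaving out pGIPZ-NC replicate 1 or 2, or shUSP39 replicate 1 or 2, left 1 higher member, and leaving out shUSP39 replicate 3 left 0. The submitters call the samples biological triplicates. How far the cultures were separate is not stated, so the p-values measure the spread between these libraries.

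The summed level differed most for the 11 numbered genes. Their summed CPM was 45.7, 42.0 and 39.6 in the pGIPZ-NC libraries and 14.5, 12.6 and 15.0 in the shUSP39 libraries, a 3.02-fold lower mean with no overlap between the groups. Without PCDH10, their most abundant gene, the difference in means was 9.05-fold, from 21.6 ± 1.80 to 2.39 ± 0.235 CPM (SD, n = 3). Both of these sums include PCDH9 (means 9.895 and 0.0765 CPM), whose low level chose the family, so both differences hold that value by selection. The PCDHB sum was 59.9 ± 2.10 and 61.0 ± 3.27 CPM, a difference smaller than the SD. The PCDHA sum was 6.36 ± 0.842 and 8.11 ± 0.446 CPM, with no overlap, and the PCDHG sum was 5.29 ± 0.571 and 5.95 ± 1.07 CPM, with overlap. These sums were not tested, since an exact two-sided permutation test of 3 libraries against 3 cannot go below p = 0.10.

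**Figure D1:**
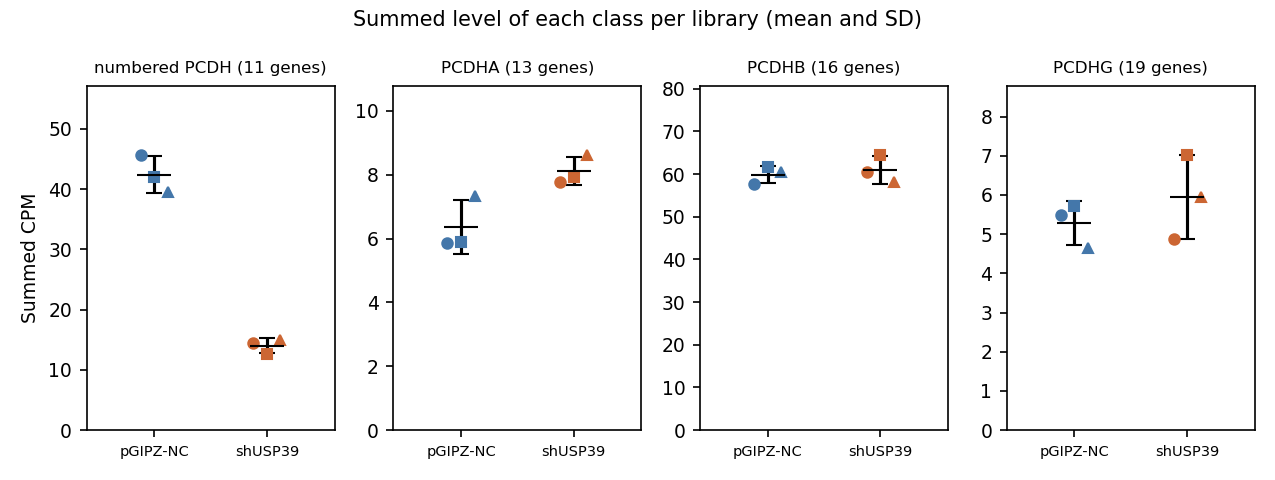
Summed CPM of the 11 numbered, 13 PCDHA, 16 PCDHB and 19 PCDHG genes in each of the 6 libraries, on linear axes from 0 that differ in height between the panels; black lines give the group mean and SD. The numbered genes, PCDH9 included, had means of 42.4 and 14.03 CPM, and the PCDHB sum lay between 57.6 and 64.5 CPM in all libraries.

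Among the numbered genes, PCDH9 had the largest difference in these cells. PCDH9 (chromosome 13, bases 66876966 to 67804577, minus strand, GRCh37) encodes a protocadherin of the delta group, adhesion proteins with long cytoplasmic tails. It had 321, 345 and 254 counts in pGIPZ-NC and 1, 4 and 2 counts in shUSP39. In CPM, its level was 10.1, 10.6 and 8.997 in pGIPZ-NC and 0.0313, 0.131 and 0.0676 in shUSP39. All shUSP39 libraries were thus close to 0, including replicate 1, which did not stand apart in its number of genes. The ratio of summed counts scaled to library size was 131, with a 95% counting interval of 63.2 to 326, and the fitted log2 fold change was -6.95 (SE 0.31). Counting intervals cover counting error only. In pGIPZ-NC, 96.1% to 99.4% of its counts came from 1 of its 2 transcript rows.

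PCDH7, PCDH17 and PCDH1 fell to a smaller extent. PCDH7 (chromosome 4, 30721991 to 31148427, plus strand) is another delta protocadherin. It had 207, 159 and 119 counts in pGIPZ-NC and 18, 20 and 28 in shUSP39, a log2 fold change of -2.85 (SE 0.27, edgeR adjusted p = 4.09e-09). PCDH7 was also the only member with several transcripts tested. Both of these were lower, by log2 fold changes of -2.97 and -2.43 (edgeR adjusted p = 1.38e-07 and 0.000344), and a test of unequal change between them gave an edgeR adjusted p of 0.719.

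PCDH17 (chromosome 13, 58205878 to 58303445, plus strand) can recruit the actin-regulating WAVE complex through its cytoplasmic tail. It had 78, 54 and 35 counts in pGIPZ-NC and 1, 9 and 5 in shUSP39, a log2 fold change of -3.42 (SE 0.54, edgeR adjusted p = 1.38e-05). The ratio of summed counts was 11.1, with a 95% counting interval of 6.53 to 20.2. Its counts in shUSP39 were so low that the size of the change was poorly fixed: over the alternative fits it ran from -5.67 to -2.93. PCDH1 (chromosome 5, 141232655 to 141258811, minus strand), known from epithelia as well as brain, had 87, 120 and 115 counts in pGIPZ-NC and 22, 10 and 9 in shUSP39. This was a log2 fold change of -2.97 (SE 0.35, edgeR adjusted p = 1.14e-07). None of these genes had overlapping groups.

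PCDH10 (chromosome 4, 134070449 to 134129761, plus strand), which also binds the WAVE complex, was the most abundant numbered gene in CPM. It fell less than the others. Its level was 22.4, 20.1 and 19.9 CPM in pGIPZ-NC and 12.3, 9.97 and 12.7 CPM in shUSP39, a log2 fold change of -0.84 (SE 0.11, edgeR adjusted p = 9.30e-07). PCDH10 accounted for 47.9% to 50.2% of the numbered counts in pGIPZ-NC and for 79.0% to 84.9% in shUSP39. The remaining tested gene of this class was PCDH12, named after its values were seen, which is known from vascular endothelium. It had 45, 27 and 16 counts against 23, 23 and 20, and its groups overlapped (log2 fold change -0.39, SE 0.45, edgeR adjusted p = 0.553). Without pGIPZ-NC replicate 1, its log2 fold change was 0.03.

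**Figure D2:**
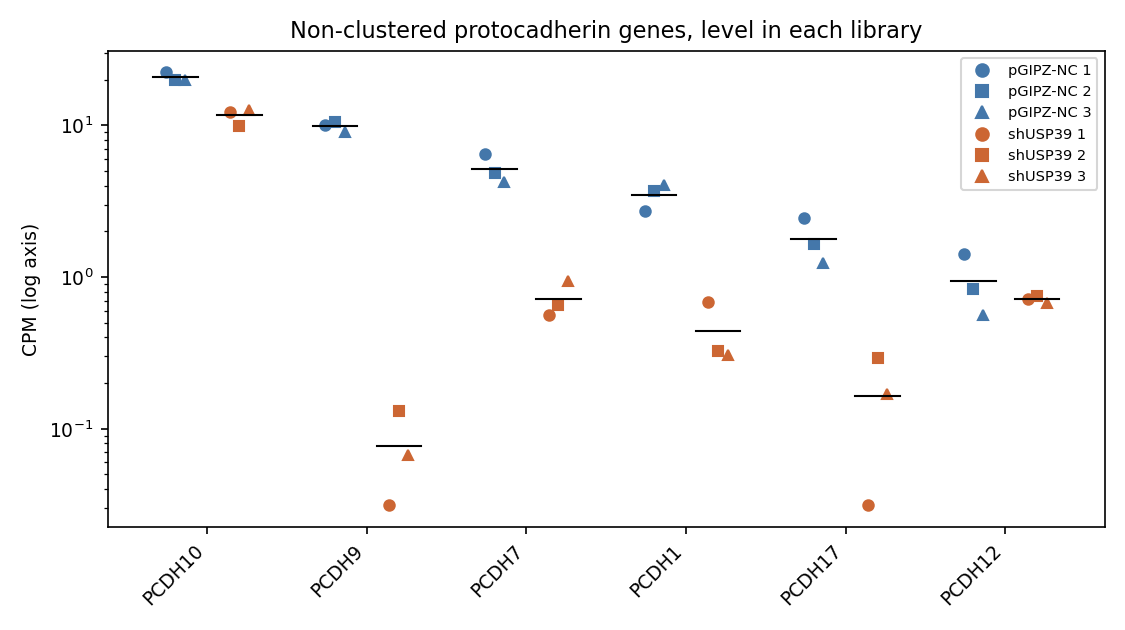
Level of the 6 tested numbered protocadherin genes in each library, as CPM on a log axis; symbols mark the replicate, colours the group, and black bars the group means. The groups are separate for PCDH10, PCDH9, PCDH7, PCDH1 and PCDH17 and overlap for PCDH12, and PCDH9 has the widest gap (means 9.89 and 0.0765 CPM).

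The other 5 numbered genes were not tested, and those described here were named after their values were seen. PCDH20 had 4, 4 and 6 counts in pGIPZ-NC and 1, 10 and 4 in shUSP39, and PCDH18 had 1, 1 and 8 counts and 0, 1 and 0 counts. PCDH8 had 4 counts in 1 pGIPZ-NC library alone, and PCDH19 had 2 and 4 counts in shUSP39 replicates 1 and 2. The fifth has a near-identical copy on another chromosome, so its reads cannot be placed with certainty. At these counts no difference was detectable.

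The PCDHB genes had similar totals in both groups, with members in both directions. PCDHB2 alone contributed 70.3% to 76.7% of the summed PCDHB CPM in every library. Per kilobase of transcript it was the highest tested member, at 10.6 CPM per kb in pGIPZ-NC and 11.3 in shUSP39, where PCDH10 had 2.44 and 1.37, PCDHB3 had 1.18 and 1.71, and PCDHGC3 had 0.988 and 0.984. PCDHB2 was at 42.9, 44.4 and 42.4 CPM in pGIPZ-NC and 46.4, 48.3 and 43.5 CPM in shUSP39, so the groups overlapped (log2 fold change 0.09, SE 0.07, edgeR adjusted p = 0.343).

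Of the 12 PCDHB genes tested, 2 were higher, 5 were lower and 5 did not pass, against 16.1% higher and 17.5% lower among all genes tested. The PCDHB proteins are type-specific adhesion molecules, and the genes lie in a row on the plus strand of chromosome 5. Their order is PCDHB1, 2, 3, 4, 5, 6, 7, 8, 16, 9, 10, 11, 12, 13, 14, 15. Read in this order, which was examined after the values were seen, the log2 fold changes of PCDHB2 to PCDHB5 were above 0 (median 0.57). Those of the 8 tested genes from PCDHB7 to PCDHB14 were all below 0 (median -1.53). Of these 8, PCDHB16, PCDHB9, PCDHB11 and PCDHB13 had too few counts in shUSP39 and entered the test on their pGIPZ-NC counts. PCDHB7, with 6 counts in shUSP39 replicate 1, and PCDHB12, with 7 in shUSP39 replicate 3, also relied on their pGIPZ-NC counts to enter. The filter thus favoured values below 0 on this side, and the shared sign is a description. On the other side, PCDHB5 had only 9 counts in pGIPZ-NC replicate 3. PCDHB5 entered on its shUSP39 counts, which favours a value above 0. The median difference of each shUSP39 library from the control mean was 0.51, 0.60 and 0.60 for PCDHB2 to PCDHB5. For PCDHB7 to PCDHB14 it was -1.18, -0.98 and -1.57. For each of these 12 genes the sign was the same in all of its 13 or 14 alternative fits, though that of PCDHB12 came as close to 0 as -0.01. These medians and fits reuse the counts from which the split was drawn, so they are no further support for it. The untested genes given here were named after their values were seen. PCDHB6 had at most 2 counts in a library, and PCDHB10 had 30, 15 and 4 counts in pGIPZ-NC and 3, 5 and 9 in shUSP39. PCDHB15, which lies past PCDHB14, had 6, 9 and 0 counts in pGIPZ-NC and 2, 7 and 4 in shUSP39, so its groups overlapped.

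**Figure D3:**
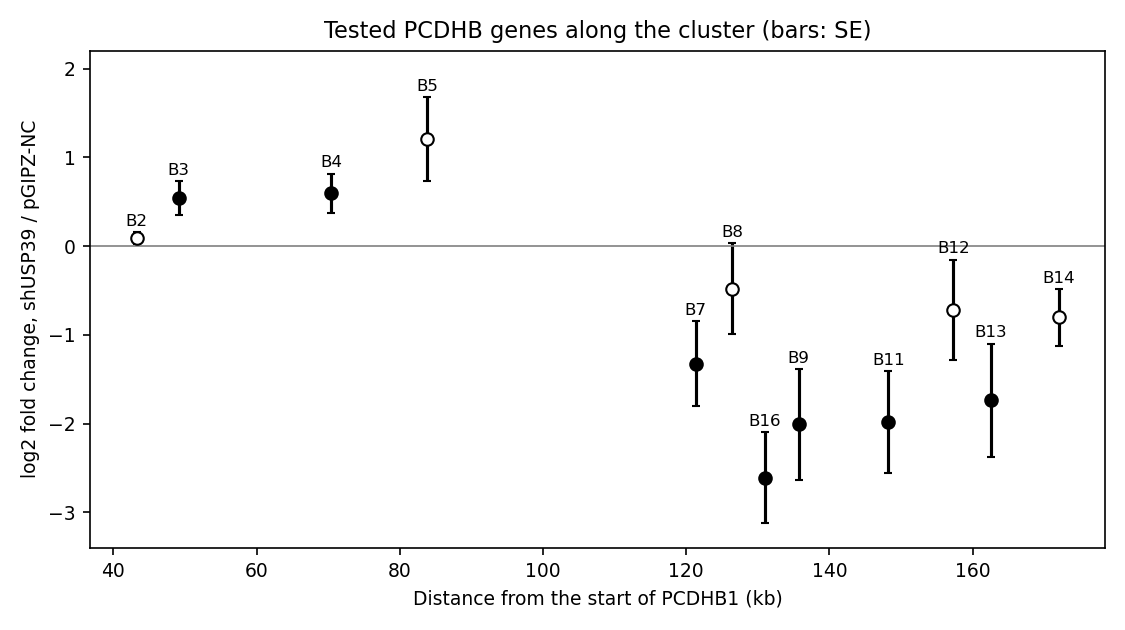
Log2 fold change of the 12 tested PCDHB genes (shUSP39 over pGIPZ-NC, bars are SE) by distance of the gene's start from that of PCDHB1, in kb on GRCh37; filled points passed at an adjusted p under 0.05. The 4 genes between 43.2 and 83.8 kb lie above 0, and the 8 genes between 121 and 172 kb lie below 0. PCDHB7, PCDHB16, PCDHB9, PCDHB11, PCDHB12 and PCDHB13 entered the test on their pGIPZ-NC counts, which favours values below 0. PCDHB5 entered on its shUSP39 counts, which favours a value above 0.

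On the side above 0, PCDHB3 (chromosome 5, 140480057 to 140483411) had 132, 101 and 130 counts in pGIPZ-NC and 199, 164 and 166 in shUSP39. It rose by a log2 fold change of 0.54 (SE 0.19, edgeR adjusted p = 0.0275). PCDHB4 (140501400 to 140505205) had 82, 113 and 61 counts and 112, 140 and 129 counts, a log2 fold change of 0.59 (SE 0.22, edgeR adjusted p = 0.0428). The groups of neither gene overlapped in CPM, but those of PCDHB4 were separated by a small gap, with 3.48 CPM in the highest pGIPZ-NC library and 3.50 CPM in the lowest shUSP39 library. Both calls depended on single libraries. Without pGIPZ-NC replicate 2, shUSP39 replicate 1 or shUSP39 replicate 3, the adjusted p of PCDHB3 was 0.159, 0.0971 and 0.0519. For PCDHB4 it was 0.114 and 0.169 without pGIPZ-NC replicates 1 and 3, and 0.148 and 0.110 without shUSP39 replicates 2 and 3. PCDHB5, named after its values were seen, had 14, 18 and 9 counts and 32, 38 and 24 counts, and its groups did not overlap. Its log2 fold change of 1.204 (SE 0.47) had an edgeR adjusted p of 0.0512.

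On the side below 0, PCDHB16 (140561962 to 140565801) had the lowest adjusted p. It had 27, 44 and 58 counts in pGIPZ-NC and 6, 9 and 6 in shUSP39, and it fell by a log2 fold change of -2.61 (SE 0.51, edgeR adjusted p = 0.000197). This call held in each of 13 alternative fits. PCDHB9 (140566701 to 140571114) had 22, 17 and 26 counts and 5, 8 and 3 counts, a log2 fold change of -2.01 (SE 0.62, edgeR adjusted p = 0.0135). PCDHB11 (140579183 to 140583352) had 22, 40 and 19 counts and 9, 7 and 4 counts, a log2 fold change of -1.98 (SE 0.58, edgeR adjusted p = 0.00835). For all of these, every shUSP39 library was below every control library. Without pGIPZ-NC replicate 3 or shUSP39 replicate 3 the adjusted p of PCDHB9 was 0.0950 and 0.0744, and without pGIPZ-NC replicate 2 that of PCDHB11 was 0.102.

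PCDHB7 and PCDHB13 were also lower, with less certain calls. PCDHB7 (140552225 to 140555964) had 36, 38 and 59 counts in pGIPZ-NC and 6, 30 and 17 in shUSP39, a log2 fold change of -1.33 (SE 0.48, edgeR adjusted p = 0.0331). Its shUSP39 libraries thus spread widely, and without pGIPZ-NC replicate 3, shUSP39 replicate 1 or shUSP39 replicate 3 the adjusted p was 0.212, 0.133 and 0.0719. PCDHB13 (140593491 to 140598551) had 16, 26 and 28 counts and 11, 9 and 1 counts, a log2 fold change of -1.74 (SE 0.64, edgeR adjusted p = 0.0369). Its adjusted p was 0.118 and 0.167 without pGIPZ-NC replicates 2 and 3, and 0.0583 and 0.168 without shUSP39 replicates 2 and 3.

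PCDHB14, the fourth most abundant PCDHB gene in CPM, had 49, 78 and 76 counts against 31, 48 and 37, a log2 fold change of -0.80 (SE 0.32, edgeR adjusted p = 0.0517). Its groups overlapped by a narrow margin, at 1.54 CPM in the lowest pGIPZ-NC library and 1.57 CPM in the highest shUSP39 library. Its edgeR adjusted p was 0.0230 without pGIPZ-NC replicate 1 and 0.0428 without shUSP39 replicate 2. With any other library left out it was 0.103 to 0.187. PCDHB8 and PCDHB12, named after their values were seen, had log2 fold changes of -0.48 and -0.72 (edgeR adjusted p = 0.518 and 0.364) with overlapping groups. PCDHB genes are close in sequence, and how reads that match several of them were counted is not stated, so the split of counts between neighbours is uncertain.

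**Figure D4:**
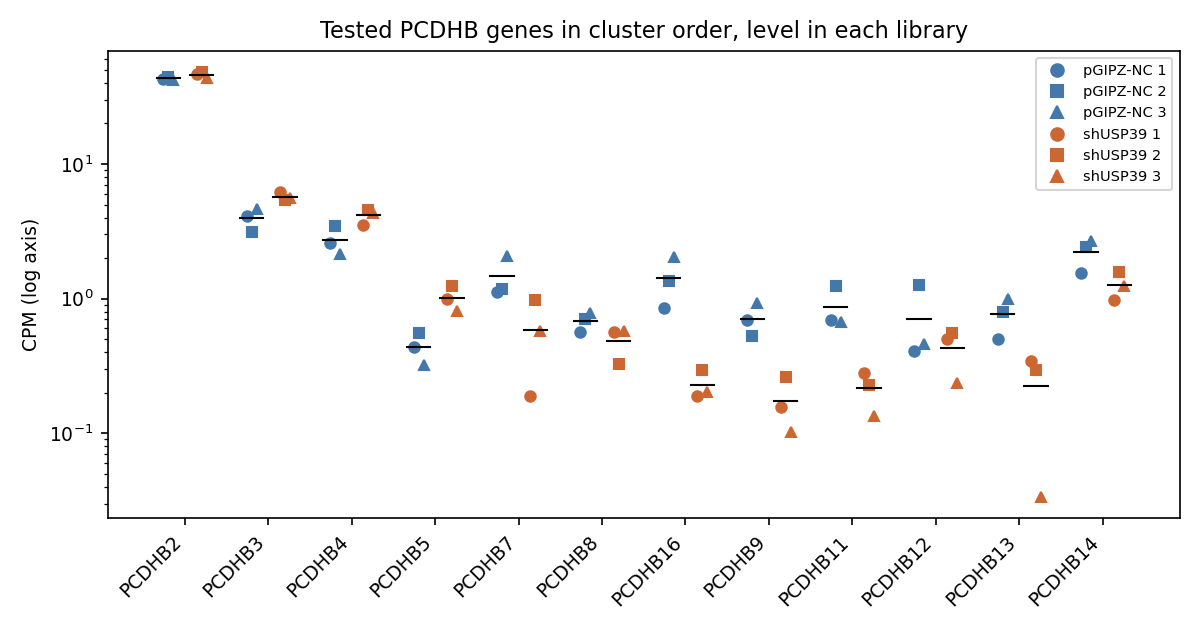
Level of the 12 tested PCDHB genes in cluster order in each library, as CPM on a log axis; symbols mark the replicate, colours the group, and black bars the group means. PCDHB2 stands far above the others at 42.4 to 48.3 CPM, and the shUSP39 libraries of PCDHB16, PCDHB9, PCDHB11 and PCDHB13 all lie below their pGIPZ-NC libraries.

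Clustered protocadherin promoters are known to hold a conserved element to which CTCF, a protein that shapes chromatin loops, can bind. The promoter windows of RefSeq (GRCh38.p14, 250 bases before to 50 bases after the start) held 51 of the 59 genes, among them 14 of the 16 PCDHB genes. The run of 8 letters that most of the 14 PCDHB windows share, and that the fewest other windows hold, was GTGGCGCT. It was present in 13 of the 14, the exception being PCDHB1. On either strand it was found in 404 of all 35116 windows (1.15%), and in 0 of 11 PCDHA, 0 of 17 PCDHG and 0 of 9 numbered genes. Since the run was chosen from the PCDHB windows and for being rare elsewhere, its frequency in any class is a description. No other form of the element was searched for, so the PCDHA and PCDHG windows may hold one. The windows of 8 genes are shown because they come from both sides of the change of sign. Each gives 20 bases before and 12 bases after the run, which is in capitals, on the plus strand:
PCDHB2: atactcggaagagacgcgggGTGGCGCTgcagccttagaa
PCDHB3: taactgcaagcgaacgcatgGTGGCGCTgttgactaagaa
PCDHB4: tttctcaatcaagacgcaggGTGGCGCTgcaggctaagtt
PCDHB5: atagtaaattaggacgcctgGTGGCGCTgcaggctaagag
PCDHB7: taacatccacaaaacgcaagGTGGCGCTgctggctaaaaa
PCDHB16: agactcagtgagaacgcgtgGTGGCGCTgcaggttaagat
PCDHB9: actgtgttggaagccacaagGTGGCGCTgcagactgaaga
PCDHB13: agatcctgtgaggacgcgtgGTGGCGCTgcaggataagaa

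On GRCh38.p14, the first of these windows is chr5:141094536-141094575 (PCDHB2) and the last is chr5:141213857-141213896 (PCDHB13). PCDHB5 lies at chr5:141135171-141135210 and PCDHB16 at chr5:141182302-141182341. The run began 59, 68, 83 and 15 bases before the start in PCDHB2, 3, 4 and 5, and 66, 65, 75 and 42 bases before it in PCDHB7, 16, 9 and 13. Genes above 0 and genes below 0 thus held it, and PCDHB11 was not among the windows. A match of letters is a description and no evidence of binding.

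No PCDHA or PCDHG gene passed the test, and few had enough counts for one. How reads from the shared constant exons, or from several transcripts of a gene, were counted is not stated. Low counts here are therefore not read as low expression. Only 3 PCDHA genes and 1 PCDHG gene were tested. The 3 were PCDHAC2, PCDHAC1 and PCDHA11, and the first 2 are C-type genes, which lie nearest to the constant exons. PCDHAC2 had 59, 91 and 122 counts in pGIPZ-NC and 131, 127 and 148 in shUSP39. Its CPM overlapped between groups, because pGIPZ-NC replicate 3 was as high as the shUSP39 libraries (log2 fold change 0.57, SE 0.24, edgeR adjusted p = 0.0751). Without that library the log2 fold change was 0.92 and the edgeR adjusted p 0.00752. With any other library left out, the log2 fold change was 0.31 to 0.62 and the edgeR adjusted p 0.0788 to 0.360. PCDHAC2 also passed under limma-voom (adjusted p = 0.0368), and in edgeR without a filter on low counts (0.0492) or with the replicate block (0.02535). PCDHAC1 had 68, 62 and 43 counts against 90, 68 and 52 (log2 fold change 0.29, SE 0.28, edgeR adjusted p = 0.477). PCDHA11, with 9 to 20 counts in every library, had a log2 fold change of -0.05 (SE 0.57, edgeR adjusted p = 0.959) that was above 0 without pGIPZ-NC replicate 1 (0.23), shUSP39 replicate 1 (0.0035) or shUSP39 replicate 3 (0.15).

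PCDHGC3, the C-type gene that made up 72.1% to 91.9% of the PCDHG counts, had 152, 171 and 115 counts in pGIPZ-NC and 123, 155 and 152 in shUSP39. Its log2 fold change was -0.01 (SE 0.19, edgeR adjusted p = 0.978), and the sign differed between alternative fits. With a mean of 4.70 ± 0.598 and 4.68 ± 0.727 CPM (SD, n = 3), the means differed by less than the SD. Of the next PCDHA genes by level, PCDHA12 had 24, 11 and 7 counts against 5, 7 and 6, and PCDHA13 had 8, 4 and 13 counts against 8, 9 and 11. The next PCDHG genes, PCDHGB6, PCDHGB1, PCDHGA10 and PCDHGA4, had 0 to 11 counts in every library. All tested clustered genes with constant exons were thus within overlapping groups.

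Single-exon and multi-exon members can be set side by side through the annotation. In GENCODE release 44, lifted to GRCh37, the longest coding transcript had 1 exon in 14 of 16 PCDHB genes, with the other 2 (PCDHB9 and PCDHB16) split into pieces that are 0 or 1 base apart. It had a median of 4 exons in the PCDHA, PCDHG and numbered classes, and 1 exon in 2 PCDHA genes and 1 PCDHG gene. Every PCDHA and PCDHG gene, and PCDH10, also had a coding transcript of 1 exon. Multi-exon is thus a name for these classes, and not all of their counted transcripts need splicing. The 12 tested PCDHB genes had a median log2 fold change of -0.76, with 5 lower and 2 higher, and with at least 10 counts in every library the median was 0.095. The 10 tested multi-exon genes had a median of -0.61 (-0.39 without PCDH9, with 4 of 9 lower and 0 higher), where the median of all genes tested was 0.0085. Without pGIPZ-NC replicate 1, which adds genes to the test, the multi-exon median was 0.012, and without pGIPZ-NC replicate 2 or shUSP39 replicate 1 it was -0.35 and -0.40. The multi-exon genes were themselves split, since the 5 numbered genes other than PCDH9 had a median of -2.85 and the 4 PCDHA and PCDHG genes a median of 0.14. No difference between the single-exon and multi-exon members was tested, as members are not replicates of a condition.

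The remaining 37 genes, of which 10 were PCDHA, 4 PCDHB, 18 PCDHG and 5 numbered, had at most 30 counts in any library. None was at 0 in all 6 libraries. Their summed counts were 104, 68 and 73 in pGIPZ-NC and 58, 121 and 93 in shUSP39, so the groups overlapped. Of the 37 genes, 9 were at 0 in all pGIPZ-NC libraries, and 4, 5 and 8 of these had a count in shUSP39 replicates 1, 2 and 3. In the whole table, 2773 genes were at 0 in all pGIPZ-NC libraries, and 333, 2277 and 1864 of them had a count in the same 3 libraries. No change is read from these low counts.

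Genes that act on protocadherins or lie beside them were examined as lists. The first list held factors that shape or silence the clusters, and the TET genes, which oxidise methylated cytosine and so counter silencing by methylation. Of its 21 tested genes, 9 were lower and 0 higher, against 17.5% lower and 16.1% higher among all genes tested. Of the 9, TET1 was lower by more than 2-fold. CTCF changed by -0.17 (SE 0.06, edgeR adjusted p = 0.0178) and RAD21, a subunit of the cohesin ring, by -0.30 (SE 0.04, edgeR adjusted p = 2.60e-07) on the log2 scale. TET1 went from 28.6, 29.8 and 25.6 CPM in pGIPZ-NC to 12.1, 12.2 and 10.04 CPM in shUSP39 (log2 fold change -1.29, SE 0.10, edgeR adjusted p = 1.14e-10). PDS5B, a regulator of cohesin, changed by -0.63 (SE 0.05, edgeR adjusted p = 3.36e-10).

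Of 15 tested signalling partners, 2 (13.3%) were higher and 1 (6.67%) lower, against 16.1% higher and 17.5% lower among all genes tested. MARCKS, an actin-binding substrate of protein kinase C, was at 5.65, 5.23 and 5.56 CPM in pGIPZ-NC and 0.906, 0.817 and 0.237 CPM in shUSP39 (log2 fold change -3.05, SE 0.30, edgeR adjusted p = 6.72e-09). The tyrosine kinases FYN and RET rose, by log2 fold changes of 1.04 and 0.77 (edgeR adjusted p = 0.00118 and 5.19e-07). Of 6 tested genes for the proteases that cleave protocadherins, 2 were lower and 0 higher, where 17.5% of all genes tested were lower and 16.1% higher. They include APH1B, a subunit of gamma-secretase (log2 fold change -0.67, edgeR adjusted p = 0.0435).

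Other large cadherins moved both ways, with 3 higher and 2 lower of 7 tested, beside 16.1% and 17.5% of all genes tested. FAT1, a giant cadherin, fell from 78.6, 81.2 and 80.2 CPM to 18.6, 19.9 and 19.1 CPM (log2 fold change -2.06, SE 0.07, edgeR adjusted p = 1.46e-18). FAT2 and DCHS1 rose, by 1.75 and 1.53 on the log2 scale (edgeR adjusted p = 0.000647 and 0.00193). Of 9 tested genes around the clusters on 5q31, 2 were higher and 4 lower, beside the same 16.1% and 17.5%, with no change beyond 2-fold. The lists had medians of -0.17 for the cluster factors with the TET genes, -0.02 for the signalling partners and -0.04 for the proteases. The medians were 0.03 for the large cadherins and -0.13 for the 5q31 genes.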

How the data were processed

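The authors deposited 1 table of counts per RefSeq transcript for the 6 libraries, with gene symbols. HISAT2, Cufflinks and the build hg19 are listed in the submitters' processing notes, and the counting program and its treatment of reads shared between genes are not given in the sources used here. Columns holding the authors' group values, fold changes, p-values and q-values were not used. Transcript counts were summed per symbol. Of 47 symbols turned into dates by a spreadsheet, 46 were replaced. Genes were tested with edgeR (version 4.0.16, R 4.3.3; TMM scaling, filterByExpr, robust quasi-likelihood fit) over all genes, with Benjamini-Hochberg adjustment. CPM were scaled by TMM, and SE was derived from the F statistic. The fit was tested on simulated data. DESeq2 (1.42.0) and limma (3.58.1) were alternatives. Coordinates and exons were read from GENCODE release 44 on GRCh37, and promoters from RefSeq on GRCh38.p14. The depth per library was 28294819 to 32939264 counts, and genes with few counts are the least precise.

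The members and lists were chosen with earlier results of these data known. Genes named were PCDH9, every member with an adjusted p under 0.05, and the 5 with the highest mean CPM in each class. Members outside this rule, marked in the text, were named after their values were seen. List genes were named where they passed and changed by over 0.5 on the log2 scale, and CTCF and RAD21 were added after their values were seen.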

Additional observations from a re-analysis of the deposited data

How the results depend on the processing

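Of the 11 members other than PCDH9 that passed, PCDH7, PCDH17, PCDH1, PCDH10 and PCDHB16 kept their direction and call in every alternative fit that tested them, and the others kept their direction. The number of lower members, PCDH9 included, was 10 in the reported fit and 7 to 11 in most other fits. It was 2 where every library had to hold at least 10 counts, a limit that left 11 members (18.2% lower, against 18.3% of all genes tested) and removed genes low in any library, PCDH9 among them. Leaving out 1 library at a time gave 7 to 11 lower and 0 to 2 higher members. The number of higher members was 1 under the Wald test of DESeq2 and 0 with shUSP39 replicate 1 as the only shUSP39 library. Row by row, 11 transcripts were lower and 2 higher. The replicate block gave 11 lower and 3 higher members. Same-numbered libraries deviated together by correlations of only 0.0688, 0.00477 and 0.0216, and not every library correlated best with its own number, so the block was not used in the report.

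The median of the PCDHB genes was -0.76, and -1.01 to -0.60 with 1 library left out. It was -1.14 with shUSP39 replicate 1 alone and 0.10 at 10 counts in every library. The median of the multi-exon genes was -0.61, and -0.90 to 0.012 with 1 library left out. It was 0.13 without a filter on low counts, -0.20 at 10 counts in every library and -0.94 with shUSP39 replicate 1 alone, so its sign rests on which genes are tested. Genes near 0 changed sign. With 1 library left out, PCDH12 ran from -0.65 to 0.027, PCDHA11 from -0.37 to 0.23 and PCDHGC3 from -0.11 to 0.11, and PCDHGC3 was 0.035 under upper-quartile scaling. Planned fits for normalized values were not run, because the table held counts. Low counts limit most clustered genes, of which 32 were not tested.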
